A study of Mus musculus with 7 samples.

Results

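The MHC class II presentation genes described here are 7 genes of the 32285 counted in each library. They were chosen by symbol as H2-Aa, H2-Ab1, H2-Eb1, Cd74, H2-DMa, H2-DMb1 and Ciita, and all 7 had a row in every matrix. The libraries came from single nuclei of fresh-frozen mouse brain, labelled as subcortex, thalamus and hippocampus. All mice carried the 5xFAD transgenes, which give amyloid plaques, on 1 of the paired chromosomes (5xFAD +/-), were 6 months old and had an AAV injected behind the eye at 4 months. The ANGPT2 AAV group had 4 libraries, a male and a female in each of 2 batches, and the control AAV group had 3, a male and a female in batch 1 and a male in batch 2. The vector's gene ANGPT2 encodes angiopoietin-2, which endothelial cells secrete and which binds TIE2 on them. The labels name neither the promoter nor the serotype of the vector, and they include no mice without the 5xFAD transgenes.

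MHC class II molecules are pairs of an alpha and a beta chain that display peptides from endosomes to CD4 T cells. The pair is made with the invariant chain in its groove, the chain is cut away in endosomes, and a related dimer then swaps its last fragment for other peptides. In the healthy brain few cells carry these molecules, mainly macrophages at the borders, and microglia near amyloid plaques are known to gain them. Transcription of the whole set depends on a transactivator that binds no DNA itself and docks on factors at a shared promoter element, made of an X box and a Y box.

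That element is shown for the members with a RefSeq promoter window in which a script found it. The search was for GNAAC, the core of the X box, followed within 20 to 30 bases by TGATTGG, the Y box, on either strand. The limits on the distance were set after these windows had been read. Sequences run 5′ to 3′ on the gene's strand with the X box core and the Y box in capitals, from RefSeq on GRCm38.p6. The first lies at chr17:34287862-34287909 on the minus strand, the second at chr17:34305771-34305817 on the plus strand and the third at chr17:34153092-34153139 on the plus strand.
H2-Aa: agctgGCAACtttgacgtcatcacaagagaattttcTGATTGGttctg
H2-Eb1: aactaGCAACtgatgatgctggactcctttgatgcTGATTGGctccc
H2-DMb1: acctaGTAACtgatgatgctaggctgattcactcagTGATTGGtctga

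The Y box ends 43 bases before the annotated start of H2-Aa, 54 before that of H2-Eb1 and 56 before that of H2-DMb1. Of 32851 windows of 300 bases (250 before to 50 after a gene's start), 106 held the pair, or 0.323%. The Y box letters alone stood in 7.82% of windows and the X core letters in 84.8%. Windows were at hand for 4 of the 7 members. The other of these 4, H2-DMa, has 2 windows, and neither holds the pair of motifs. Among the accessory class II chains, the pair was found for 3 of 4 (H2-Oa, H2-Ob and H2-Eb2), and not for H2-DMb2. A match or its absence describes the letters of these windows only.

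The matrices held 58286 barcodes, 6311 to 9630 per library, and 25466033 to 100529717 UMIs per library. After removing 3939 called doublets, 54230 nuclei were kept, of which 8486 fell in clusters without a name. Depth differed with batch: a barcode of the ANGPT2 libraries had a median of 6752 and 3678 UMIs in batch 1 and of 2262 and 3407 in batch 2, against 7281.5 and 8278 in the control libraries of batch 1 and 2350.5 in that of batch 2. Clusters with markers of dentate granule, thalamic, striatal medium spiny, inhibitory and other excitatory neurons were all present. Rorb, Foxp2 and Cux2 were among the genes that led clusters of the last kind. Of the barcode sequences, 1941 occurred in more than 1 library, at most 1.57% for any pair. The mouse Angpt2 gene had 4.79, 3.60, 2.25 and 2.65 CPM (UMIs per 1000000 UMIs of the nuclei summed) in ANGPT2 libraries, against 3.76, 4.28 and 4.04 CPM in control libraries. The groups overlap in it, and the vector's own transcript was not analysed here.

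Per UMI, the class II chains were densest in microglia, which held 35.4% of the chain UMIs of the libraries. The class was named from its markers (all 12 listed ones were detected) after clustering with the members left out of the variable genes. It held 2959 nuclei, and in them H2-Aa, H2-Ab1, H2-Eb1 and Cd74, the 3 peptide-binding chains and the invariant chain, summed to 46.4 ± 25.5 CPM (SD over 7 libraries). These are called the 4 chain genes below. Levels are not scaled by transcript length, so they compare nuclei and not genes. The lowest and the highest library had 18.9 and 93.5 CPM. Next came fibroblasts (16 ± 13.4), mural cells (6.92 ± 13.8), choroid plexus (4.49 ± 5.13, 6 libraries), oligodendrocyte precursors (4.04 ± 3.44), oligodendrocytes (3.78 ± 3.43), ependymal cells (3.37 ± 6.65), astrocytes (3.25 ± 3.35) and endothelial cells (3.10 ± 4.05). Neurons had 0.987 ± 0.703 CPM, and the 127 committed oligodendrocyte precursors had no UMI of these genes. Apart from neurons and these precursors, each class overlapped with its neighbour in this order, so the spread of the libraries does not fix most of it. Taken alone, Cd74 averaged 26.3 ± 14.0 CPM in microglia, next to 6.92 ± 13.8 in mural cells. H2-Ab1 averaged 8.16 ± 4.87 CPM in microglia and 1.31 ± 3.46 in fibroblasts. H2-Aa averaged 5.95 ± 3.52 CPM in microglia and 6.61 ± 8.82 in fibroblasts, and H2-Eb1 5.97 ± 5.11 in microglia and 5.14 ± 13.6 in fibroblasts, so neither separates these classes. The chain UMIs of the 356 fibroblasts lay in 10 nuclei.

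**Figure D1:**
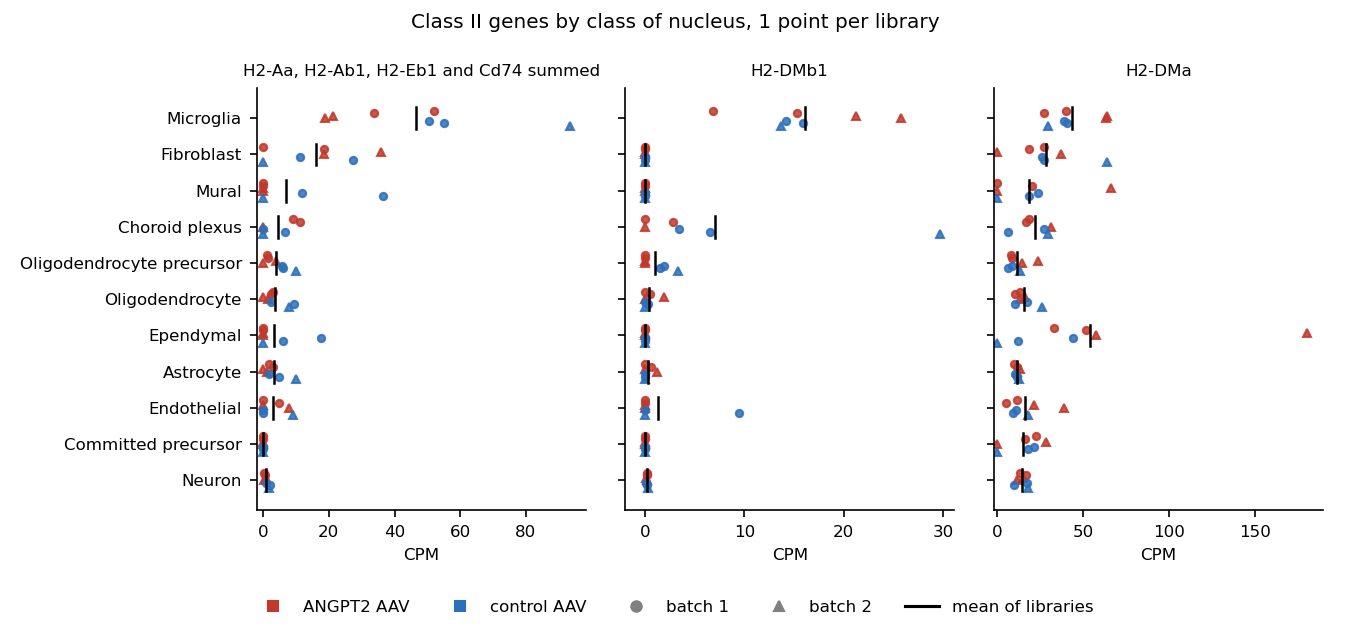
Each point is 1 library, and the horizontal axis gives CPM within a class of nuclei, with circles and triangles for batches 1 and 2 and colours for ANGPT2 AAV and control AAV. Black ticks mark the mean over libraries, which for the 4 chain genes is 46.4 in microglia and 0.987 in neurons.

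Each member was set against all other named nuclei of the same libraries with edgeR. H2-DMb1, the beta chain of the DM dimer that swaps peptides, stood 5.54 log2 units higher in microglia (SE 0.30). H2-Ab1, the beta chain of the I-A molecule, stood 4.91 higher (SE 0.36) and Cd74 4.61 higher (SE 0.27). H2-DMa, the alpha chain of DM, stood only 1.00 higher (SE 0.16, edgeR adjusted p = 2.92e-05). Of these, H2-DMb1, H2-Ab1 and Cd74 passed the filter on low counts through their microglial sums, so their direction was fixed by the filter and their values are a description. H2-DMa is counted in all large classes, and its difference is given with its test. Of all 15776 genes tested, 5358 were higher in microglia, or 34%. Without the ANGPT2 male of batch 2, which has no microglial UMI of them, H2-Aa, H2-Eb1 and Ciita passed the filter in the same way and stood 4.53, 4.43 and 2.68 higher on the log2 scale.

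H2-DMa did not follow the chain genes across classes, while Ciita, like them, had its highest mean in microglia. H2-DMa averaged 43.4 ± 14.7 CPM in microglia and 54.0 ± 59.6 in the 306 ependymal nuclei (SD, 7 libraries each), where single libraries ran from 0 to 181. It had 14.6 ± 3.12 CPM in neurons and 11.4 ± 1.22 in astrocytes, and no neighbouring classes were separated in its order. Microglia held 4.61% of its 5163 UMIs and neurons 76.4%. Of the 346328449 UMIs of all kept nuclei, neurons held 270493939 and microglia 5879573. A neuronal share of this size is thus not particular to H2-DMa. The gene body of H2-DMa (chr17, 34119541 to 34139101, plus strand, GRCm38) overlaps Brd2 on the other strand, together with 2 antisense RNAs and a pseudogene. Whether counting used the strand is not given in the sources used here, so the UMIs of H2-DMa and of its overlapping genes cannot be told apart with certainty. Ciita, the transactivator, averaged 3.16 ± 1.72 CPM in microglia, 0.856 ± 2.27 in ependymal cells, the next class, and 0.429 ± 0.219 in neurons. Libraries of the first and the next class overlapped. Neurons held 71.3% of its 143 UMIs and microglia 13.3%, and this neuronal share is likewise not particular to Ciita. Its gene on chr16 (10480059 to 10528418, plus strand) overlaps Dexi on the other strand. H2-DMb1 averaged 16.1 ± 6.00 CPM in microglia, where 51.7% of its 174 UMIs lay, and 7.07 ± 11.3 in choroid plexus. Its level is uncertain where reads are shared with its close paralog H2-DMb2.

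The 4 chain genes had a similar make-up in microglia, neurons and oligodendrocytes, while their amount differed, which was not tested beyond these shares. In microglia 57.5% of the 280 chain UMIs were Cd74, 14.3% H2-Aa, 15.4% H2-Ab1 and 12.9% H2-Eb1. Outside microglia 59.8% of the 512 chain UMIs were Cd74, 13.9% H2-Aa, 11.5% H2-Ab1 and 14.8% H2-Eb1. In neurons alone 58.5% of 272 were Cd74, and in oligodendrocytes 55.1% of 78. For each chain UMI there were 0.85 H2-DMa UMIs in microglia and 14.5 in neurons. What part of the UMIs outside microglia, in each group, came from free RNA in the droplets was not tested.

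Nuclei with several class II genes at once were nearly all in the microglial class. UMIs of at least 2 different chain genes were found in 37 microglia, 12 of them with 3 or 4 and 35 with Cd74 among them, in 3 neurons and in 0 nuclei of the other named classes. A UMI of a single chain gene was found in 113 microglia, 258 neurons and 77 oligodendrocytes. In all, 5.07% of microglia had a chain UMI at a median of 1722 UMIs per nucleus, against 0.735% of oligodendrocytes at a median of 1959 UMIs and 0.985% of neurons at a median of 8589.5 UMIs. For Cd74 the share was 3.92% of microglia and 0.401% of oligodendrocytes. Oligodendrocytes, in which these genes are usually low, were taken here as a reference for background UMIs. Whether their own chain UMIs come from free RNA in the droplets was not tested. Counting a UMI of any of the 7 members, the share was 14.6% in microglia, 3.5% in oligodendrocytes and 14.2% in neurons, whose share was mostly H2-DMa. With each nucleus thinned to 500 UMIs, 2.09%, 3.36%, 6.03% and 4.73% of microglia had a member UMI in the ANGPT2 libraries (male and female of batch 1, then of batch 2), against 4.00%, 5.02% and 6.90% in the control libraries (both of batch 1, then the male of batch 2). The groups overlapped in this share.

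Between the groups, Cd74 was the member whose microglial level differed most clearly, with less in ANGPT2 microglia, and it did not pass the threshold over all genes. In what follows the libraries of a group are listed as male and female of batch 1, then of batch 2, where the control group has a male only. The microglia numbered 287, 357, 232 and 613 in ANGPT2 libraries, with 729570, 981842, 282563 and 581837 UMIs, and 450, 498 and 522 in control libraries, with 1482848, 1382391 and 438522 UMIs. With edgeR's quasi-likelihood test, 0 of 9935 genes were called (0%) in microglia, and DESeq2 called 0 as well. At an unadjusted p under 0.05, edgeR had 322 genes (3.24%), of which 200 (2.01% of those tested) were lower in ANGPT2 microglia. In counts drawn anew at the depths of these libraries, from 1 pooled profile and with no batch difference, 47 of 100 genes changed 2-fold were recovered. Of genes changed 4-fold, 97 of 100 were. Only genes that passed the filter on low counts were drawn, so this does not cover H2-Aa, H2-Ab1, H2-Eb1 and Ciita. Libraries are separate mice as far as the labels say, and the p-values measure the spread between these 7 libraries.

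The I-A alpha chain H2-Aa had 8.22, 4.07, 0 and 3.44 CPM in ANGPT2 microglia, against 7.42, 9.40 and 9.12 in control microglia (6, 4, 0 and 2 UMIs against 11, 13 and 4 UMIs). The ANGPT2 male of batch 1 lay within the control range and the other 3 ANGPT2 libraries below it. In the ANGPT2 male of batch 2 a count of 0 allows up to 10.6 CPM, a limit of 3 UMIs that covers counting error only, and this is above every control library. Its partner H2-Ab1 had 8.22, 8.15, 7.08 and 3.44 CPM in ANGPT2 microglia, against 4.05, 7.96 and 18.2 in control microglia. The highest value belonged to the control male of batch 2, and the groups overlapped. H2-Eb1, the beta chain of the I-E molecule, had 5.48, 6.11, 0 and 1.72 CPM in ANGPT2 microglia, against 7.42, 5.06 and 16 in control microglia. Here too the groups overlapped and the control male of batch 2 was the highest. These 3 chains did not pass the filter on low counts. Fitted without that filter, the log2 change of ANGPT2 over control was -0.85 for H2-Aa (SE 0.60), -0.22 for H2-Ab1 (SE 0.57) and -0.92 for H2-Eb1 (SE 0.64), and none was called.

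Cd74, the invariant chain that holds the groove of new class II molecules, had 30.2, 15.3, 14.2 and 10.3 CPM in ANGPT2 microglia, against 31.7, 32.6 and 50.2 in control microglia. The ANGPT2 male of batch 1 was just below the lowest control library and the other 3 were further below it, so the groups did not overlap. The same held, with ANGPT2 lower, for 336 of the 9935 genes tested (3.38%). The means were 17.5 ± 8.72 and 38.1 ± 10.4 CPM in ANGPT2 and control microglia (SD, n = 4 and n = 3 libraries). The log2 change was -0.95 (SE 0.33, edgeR adjusted p = 1.00), with an unadjusted p under 0.05. Within batches, the log2 ratio of the mean levels was -0.50 in batch 1 and -2.04 in batch 2, where 1 control library stands against 2 ANGPT2 libraries.

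The DM chains had no common direction. H2-DMa had 39.7, 27.5, 63.7 and 63.6 CPM in ANGPT2 microglia, against 39.1, 40.5 and 29.6 in control microglia. Both ANGPT2 libraries of batch 2 were above all others, and within batches the log2 ratio was -0.24 in batch 1 and 1.10 in batch 2. The fitted log2 change was 0.32 (SE 0.30), not called. H2-DMb1 had 6.85, 15.3, 21.2 and 25.8 CPM in ANGPT2 microglia, against 14.2, 15.9 and 13.7 in control microglia. The ANGPT2 libraries held both the lowest and the highest values, the log2 ratio was -0.44 in batch 1 and 0.78 in batch 2, and the fitted log2 change was 0.18 (SE 0.40), not called. Ciita had 5.48, 3.06, 0 and 3.44 CPM in ANGPT2 microglia, against 2.70, 2.89 and 4.56 in control microglia, from at most 4 UMIs per library. The groups overlapped, and its depth allows no finer statement.

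Summed, the 4 chain genes had 52.1, 33.6, 21.2 and 18.9 CPM in ANGPT2 microglia, against 50.6, 55 and 93.5 in control microglia. The log2 ratio of the group means was -1.08, with -0.30 in batch 1 and -2.22 in batch 2. The ANGPT2 male of batch 1 fell inside the control range. All 7 members together came to 104, 79.4, 106 and 112 CPM in ANGPT2 microglia, against 107, 114 and 141 in control microglia, a log2 ratio of -0.27. The sum of the 7 thus differed less than that of the 4 chain genes, since H2-DMa holds many of its UMIs.

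**Figure D2:**
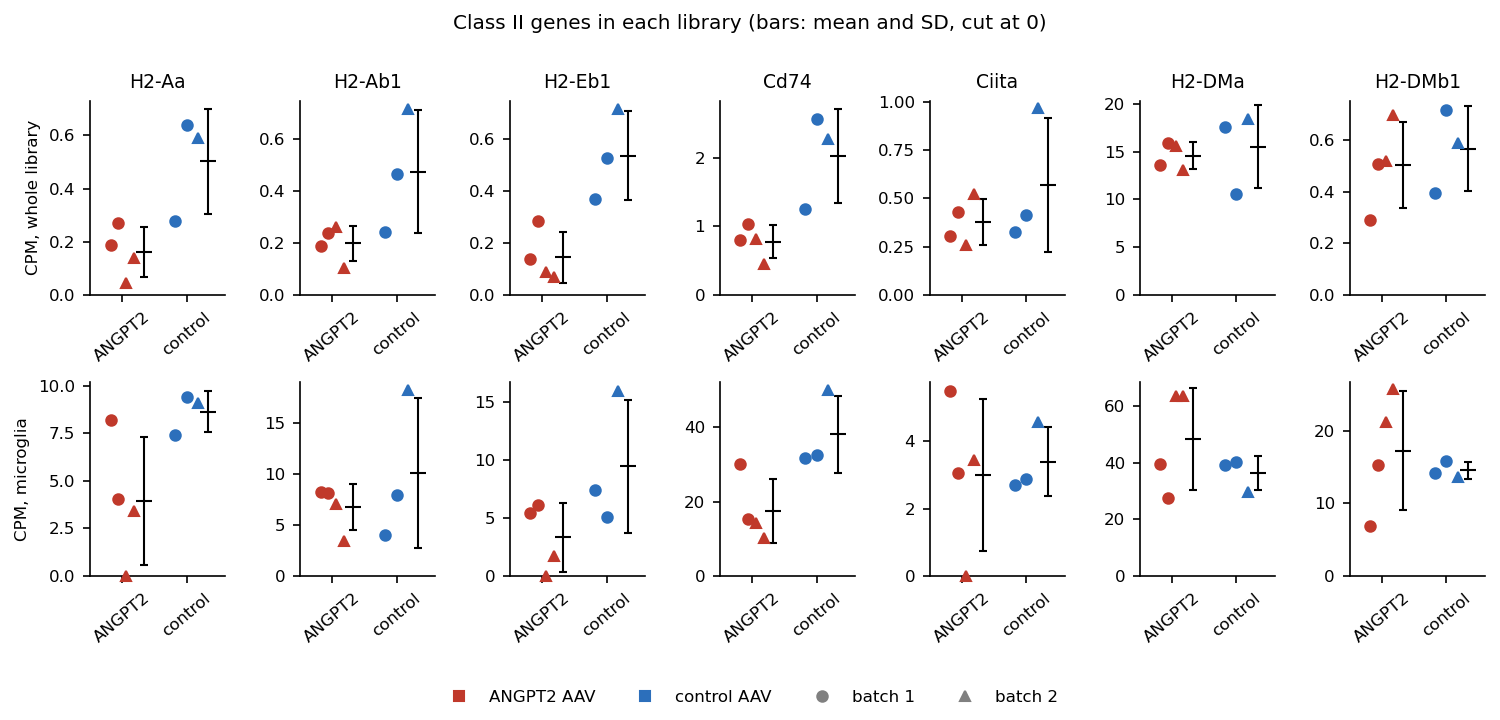
Points are single libraries and the vertical axes give CPM of each member, in all kept nuclei (upper row) and in microglia (lower row), with ANGPT2 AAV left of control AAV and bars for mean and SD. Cd74 lies at 10.3 to 30.2 in ANGPT2 microglia and at 31.7 to 50.2 in control microglia, while the groups overlap for H2-DMa and H2-DMb1 in both rows.

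Over all kept nuclei, the 3 binding chains and Cd74 were lower in ANGPT2 libraries by unadjusted p, and none passed the adjusted threshold. In such whole-library sums, fewer nuclei of a type and less RNA per nucleus cannot be told apart. H2-Aa had 0.188, 0.270, 0.0432 and 0.139 CPM in ANGPT2 libraries, against 0.278, 0.639 and 0.589 in control libraries. H2-Eb1 had 0.136, 0.286, 0.0864 and 0.0696 in ANGPT2 libraries, against 0.370, 0.527 and 0.716 in control libraries. In both genes every ANGPT2 library was below every control library. Cd74 had 0.802, 1.03, 0.821 and 0.452 CPM in ANGPT2 libraries, against 1.25, 2.57 and 2.27 in control libraries, again without overlap. H2-Ab1 had 0.188, 0.238, 0.259 and 0.104 CPM in ANGPT2 libraries, against 0.243, 0.463 and 0.716 in control libraries. In this gene the ANGPT2 male of batch 2 was just above the lowest control library. Groups without overlap and with ANGPT2 lower were thus found for 3 of the 7 members and for 630 of the 19999 genes tested (3.15%). Of these 3, H2-Aa and H2-Eb1 passed the filter on low counts only through the control libraries, so their place in this count is a description.

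The fitted log2 change in whole libraries was -1.63 for H2-Eb1 (SE 0.44), -1.41 for H2-Aa (SE 0.48), -1.31 for Cd74 (SE 0.34) and -1.10 for H2-Ab1 (SE 0.44). Their edgeR adjusted p was 1.00, and edgeR called 0 of 19999 genes (0%). At an unadjusted p under 0.05 stood 4 of the 7 members, all lower, against 568 of all genes (2.84%), of which 323 were lower (1.62% of those tested). H2-Aa and H2-Eb1 passed the filter on low counts only through the control libraries, where they were higher, so their direction is a description. With no filter on low counts, 4 of the 7 members stood under that p, beside 876 of 27864 genes. Within batches, the log2 ratio of the mean levels of the 4 chain genes was -1.01 in batch 1 and -2.12 in batch 2, so it had the same sign in both. Ciita had 0.307, 0.428, 0.259 and 0.522 CPM in ANGPT2 libraries, against 0.324, 0.415 and 0.968 in control libraries, with a log2 change of -0.39 (SE 0.43). H2-DMa had 13.6, 15.9, 15.6 and 13.1 CPM in ANGPT2 libraries, against 17.6, 10.6 and 18.4 in control libraries, with a log2 change of 0.01 (SE 0.17). Its sign turned under 5 of 17 other settings. H2-DMb1 had 0.290, 0.508, 0.519 and 0.696 CPM in ANGPT2 libraries, against 0.393, 0.719 and 0.589 in control libraries, with a log2 change of -0.13 (SE 0.39). The groups overlapped in all 3 of these genes.

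Microglia made up 4.01%, 4.04%, 3.88% and 7.87% of kept nuclei in ANGPT2 libraries, against 5.36%, 6.93% and 5.88% in control libraries. The lower chain level in whole libraries was as large when every microglial nucleus was left out, an alternative added after the data were seen. The 4 chain genes then had 0.674, 1.32, 0.962 and 0.391 CPM in ANGPT2 libraries, against 1.29, 3.05 and 2.62 in control libraries. Only the ANGPT2 female of batch 1 reached into the control range. The fitted log2 changes outside microglia were -1.70 for H2-Eb1, -1.45 for H2-Aa, -1.37 for H2-Ab1 and -1.26 for Cd74, and none was called by edgeR. In neurons, the 4 chain genes had 0.366, 0.715, 0.844 and 0.173 CPM in ANGPT2 libraries, against 0.964, 2.11 and 1.74 in control libraries. No ANGPT2 library reached the control range there, and the share of all neuronal genes that separate in this way was not counted. The fitted log2 change of neuronal Cd74 was -1.41 (SE 0.54, edgeR adjusted p = 0.983). Of 18549 genes tested in neurons edgeR called 0 (0%) and had 520 at an unadjusted p under 0.05 (2.8%), Cd74 among them, of which 293 were lower (1.58% of those tested). Neuronal H2-DMa had a log2 change of 0.02, H2-DMb1 of 0.24 and Ciita of -0.33. In oligodendrocytes the chain level was 2.92, 2.48, 0 and 1.38 CPM in ANGPT2 libraries, against 2.56, 9.33 and 7.76 in control libraries. The ANGPT2 male of batch 1 was above the lowest control library.

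**Figure D3:**
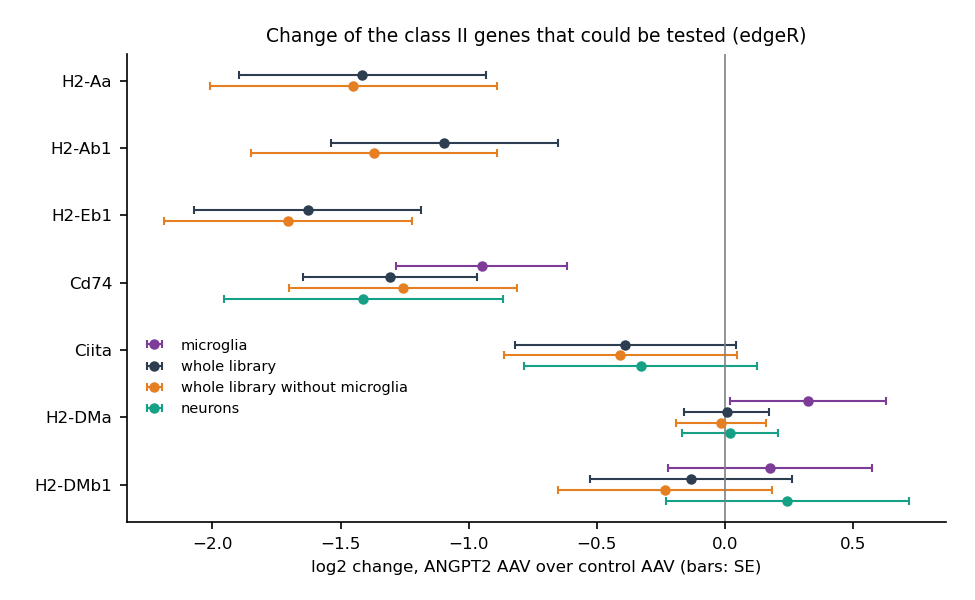
The horizontal axis gives the log2 change of ANGPT2 AAV over control AAV with its SE for each member that passed the count filter in microglia, in all kept nuclei, outside microglia and in neurons. Where they passed that filter, the 4 chain genes lie between -1.70 and -0.95, and only Cd74 of them passed it in microglia and in neurons. H2-DMa stays between -0.01 and 0.32.

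The highest chain levels lay in a few nuclei of 2 small sub-clusters inside the microglial class, named for other leukocytes. Within the class, 8 sub-clusters were made, again without the members. A sub-cluster of 55 nuclei, led by lymphocyte genes such as Skap1 and Themis, had 445 chain CPM (95% Poisson interval 321 to 602, counting error only). A sub-cluster of 33 nuclei, led by the border macrophage genes F13a1, Mrc1 and Cd163, had 350 chain CPM (95% Poisson interval 217 to 536). The other 6 sub-clusters ranged from 12.8 to 67.6 chain CPM. In the lymphocyte-like sub-cluster 6 of the 55 nuclei had any chain UMI, and 4 of them held 17, 11, 8 and 4 of its 42. These 4 nuclei had no UMI of the T and NK lymphocyte markers for which the sub-cluster is named. In the border macrophage-like sub-cluster 4 of the 33 nuclei had any, and 2 of them held 10 and 5 of its 21. The sub-cluster levels therefore rest on these nuclei, and the intervals do not cover the spread between nuclei. The lymphocyte-like nuclei numbered 3, 8, 0 and 2 in ANGPT2 libraries, against 17, 20 and 5 in control libraries. Their 42 chain UMIs numbered 21, 0, 0 and 0 in ANGPT2 libraries, against 9, 12 and 0 in control libraries. In this sub-cluster 3 nuclei had at least 3 UMIs of B cell markers, and these held 23 of the 42 chain UMIs. The border macrophage-like nuclei numbered 4, 1, 4 and 5 in ANGPT2 libraries, against 7, 3 and 9 in control libraries, and their 21 chain UMIs numbered 4, 0, 0 and 0 in ANGPT2 libraries, against 17, 0 and 0 in control libraries.

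The summed markers of T and NK lymphocytes were lower in the ANGPT2 microglial class within each batch. Summed over the 10 listed markers, all detected, they had 103, 156, 70.8 and 84.2 CPM in ANGPT2 microglia, against 272, 250 and 91.2 in control microglia. Single markers differed in this. Cd3e had 0, 1, 0 and 0 UMIs in ANGPT2 libraries, against 9, 8 and 0 in control libraries, and so was at 0 in all of batch 2. Prkcq had 30, 45, 10 and 15 UMIs in ANGPT2 libraries, against 90, 64 and 4 in control libraries, and Il7r had 34, 51, 7 and 16 in ANGPT2 libraries, against 79, 53 and 10 in control libraries. Per microglial UMI, both ANGPT2 libraries of batch 2 were above the control library in Prkcq and Il7r, and the ANGPT2 female of batch 1 was above the control female in Il7r. The 8 border macrophage markers, all detected, summed to 166 to 470 CPM in ANGPT2 microglia, against 194 to 295 in control microglia. The 8 B cell markers, all detected, summed to 169 to 311 in ANGPT2 microglia, against 86.1 to 194 in control microglia. Most of these were Bank1, while Cd79a had 1, 0, 0 and 0 UMIs in ANGPT2 libraries, against 4, 0 and 0 UMIs in control libraries. Of the 8 dendritic cell markers Xcr1, Cd209a and Ccl22 were at 0 in every library, and the rest summed to 14.2 to 31.5 in ANGPT2 microglia, against 25 to 25.3 in control microglia. Without the lymphocyte-like and border macrophage-like sub-clusters, a setting added after the data were seen, the log2 change of microglial Cd74 was -1.16 (SE 0.33, edgeR adjusted p = 1.00), still at an unadjusted p under 0.05. Without every nucleus that had at least 3 UMIs summed over the markers of the 4 leukocyte lists, it was -0.64 (SE 0.38, edgeR adjusted p = 1.00) and no longer at an unadjusted p under 0.05. This cut is on raw UMIs and fell mostly on the deeper batch 1. It kept 345 of 450 nuclei in the control male of batch 1, but 506 of 522 in that of batch 2. In ANGPT2 males it kept 235 of 287 in batch 1 and 214 of 232 in batch 2. It also counts Bank1, which leads a sub-cluster high in homeostatic markers.

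Nuclei with at least 3 UMIs of the 7 members, called carriers here, were rare. They were chosen by the members' own UMIs, so their class II levels are a description. There were 30 among 2959 microglia (1.01%), and they held 135 of the 280 chain UMIs, or 48.2%. By library they numbered 4, 5, 0 and 2 in ANGPT2 libraries, against 8, 9 and 2 in control libraries. The groups overlapped, and depth differs between batches. Of the 30, 14 lay in disease-associated-like sub-clusters, 5 in those high in homeostatic markers, 4 among the lymphocyte-like nuclei, 3 among the border macrophage-like nuclei and 4 in unnamed sub-clusters. At least 3 UMIs summed over the markers of the 4 leukocyte lists were present in 9 of the 30, against 11.0% of the other microglia. Neurons had 76 carriers among 26484 nuclei, but 92.3% of the member UMIs in these were H2-DMa, and only 1 of the 76 had more than 1 chain gene, against 22 of the 30 microglial carriers. Nuclei at the edge of the rule had exactly 3 or exactly 2 member UMIs: with at least 2 UMIs the number in microglia was 83, and with at least 5 it was 11.

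The 11 nuclei with at least 5 member UMIs were all in the microglial class. They numbered 2, 1, 0 and 0 in ANGPT2 libraries, against 5, 3 and 0 in control libraries, and held 89 of the chain UMIs. The nucleus with the most member UMIs, 20, came from the ANGPT2 male of batch 1 and lay among the lymphocyte-like nuclei. It had 9 UMIs of Cd74, and none of the T or B cell markers. Next was a nucleus of the control female of batch 1 with 15 member UMIs and 19 UMIs of B cell markers, in the same sub-cluster. An ANGPT2 female of batch 1 nucleus with 13 member UMIs lay in a sub-cluster high in homeostatic markers, and a control male of batch 1 nucleus with 11 lay among the border macrophage-like ones. Of these 11 nuclei, 5 had at least 3 UMIs of B cell markers and 2 of border macrophage markers.

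**Figure D4:**
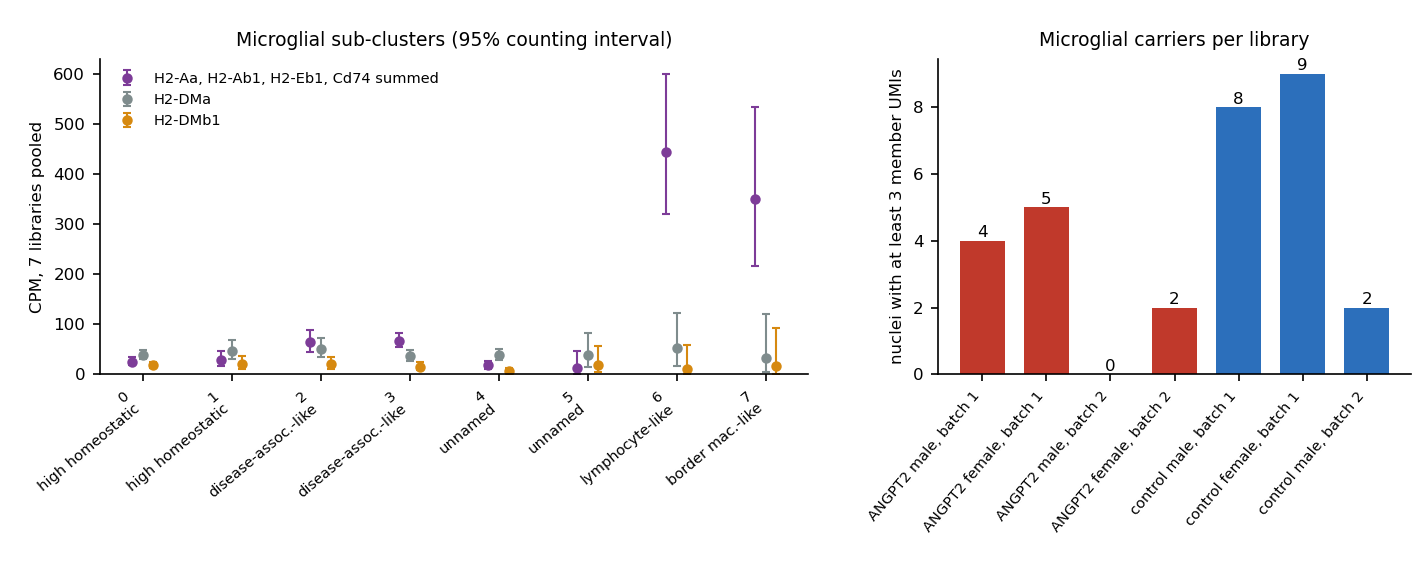
The left panel gives CPM with 95% Poisson intervals in the 8 microglial sub-clusters, pooled over 7 libraries, and the right panel gives the number of microglial nuclei with at least 3 member UMIs per library. The lymphocyte-like and border macrophage-like sub-clusters stand at 445 and 350 for the summed chain genes, and the carriers number 0 to 5 in ANGPT2 libraries and 2 to 9 in control libraries.

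Among the remaining microglia, the disease-associated-like nuclei had more Cd74 than those high in homeostatic markers. The 1115 nuclei named disease-associated-like carry markers of the state that microglia take near plaques. Their Cd74 averaged 38.7 ± 17.8 CPM, against 15.3 ± 11.4 in the 1372 nuclei high in homeostatic markers (SD, n = 7 libraries each), and it was higher in 7 of 7 libraries. The 4 chain genes together averaged 63.6 ± 37.8 in disease-associated-like nuclei, against 27.2 ± 19.9 in nuclei high in homeostatic markers, also higher in 7 of 7 libraries. H2-DMa averaged 43.3 ± 18.6 against 43.6 ± 15.2 in nuclei high in homeostatic markers and was higher in 3 of 7 libraries. H2-DMa was also the one member with enough counts for the test (log2 difference -0.02, SE 0.23) and was not called, while 1225 of 5796 genes were (21.1%). Without the ANGPT2 female of batch 2, Cd74 also passed the count filter and was called by edgeR, a call that depends on that library. It passed mainly through its disease-associated-like sums, so its direction was largely fixed by the filter and the call is a description. The sub-clusters of both states divide largely by batch, so the comparison was made within each library.

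In disease-associated-like nuclei the 4 chain genes had 52.3, 51.9, 35.9 and 19.5 CPM in ANGPT2 libraries, against 63.9, 87.1 and 135 in control libraries. Every ANGPT2 library was below every control library. The share of all genes that do so was not counted in either state, and in all microglia it was 3.38%. In the nuclei high in homeostatic markers they had 6.31, 41.5, 17.7 and 13.8 in ANGPT2 libraries, against 30.7, 16.7 and 64.0 in control libraries, with overlap. Cd74 alone had 36.6, 31.9, 35.9 and 9.76 CPM in ANGPT2 disease-associated-like nuclei, against 41.8, 45.6 and 69.6 in control ones. In the nuclei high in homeostatic markers it had 6.31, 12.2, 5.91 and 9.21 in ANGPT2 libraries, against 23.9, 12.5 and 37.3 in control libraries. ANGPT2 libraries were thus below control libraries in both states, in the nuclei high in homeostatic markers only by 12.2 against 12.5 at the closest. Whether the difference between groups was unlike in the 2 states was not tested.

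Carriers differed from the other microglia of their libraries in few other genes. In the 4 libraries with at least 3 carriers, all of batch 1, 6983 genes were tested and 13 were called by edgeR (0.186%), of which 9 were not members and 8 are named here. Higher in carriers were Arhgap15, a regulator of Rac signalling in leukocytes (log2 difference 2.27, edgeR adjusted p = 1.19e-05), Aff3, a nuclear factor of lymphoid tissue (2.67, edgeR adjusted p = 1.78e-05), and Cybb, the catalytic subunit of the phagocyte NADPH oxidase (2.49, edgeR adjusted p = 0.0185). Arhgap15 also leads the lymphocyte-like sub-cluster, which holds 4 of the 30 carriers. Ms4a6c at 2.27, Itga4 at 2.15 and Bank1 at 1.37 were not called. Lower in carriers were Zfp804b (-2.56), Pde4b (-2.21), Edil3 (-2.17), Nkain2 (-2.10) and St18 (-2.08), all called by edgeR. Lower calls numbered 0 without the control male, the ANGPT2 male or the ANGPT2 female of batch 1, and 38 without the control female. The median log2 difference over all genes tested was -0.37, and 364 of the 410 genes at an unadjusted p under 0.05 were lower. These lower genes thus lie in a general shift of the sums. Of the lower genes named, St18, Pde4b, Nkain2 and Edil3 lead an unnamed sub-cluster of 251 nuclei in which oligodendrocyte genes stand out, at 18.2 chain CPM.

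The other genes of the pathway were followed as a list of 29. In microglia 23 were tested, 0 were called by edgeR, 10 were higher and 13 lower in ANGPT2 microglia, with a median log2 change of -0.06 (-0.00 over all genes tested). At an unadjusted p under 0.05 were 2 of the 23, among them Cd274, the inhibitory ligand PD-L1 (log2 change -1.0, SE 0.34). The next by p were Creb1, a factor that also binds class II promoters (0.28, SE 0.17), and Icosl, a T cell co-stimulator (0.39, SE 0.24). In whole libraries 27 were tested, 0 were called, 7 were higher and 20 lower, with a median log2 change of -0.12 (-0.02 over all genes tested). Cd274, the one at an unadjusted p under 0.05, had a log2 change of -1.06 (SE 0.28). Of the accessory chains, H2-DMb2, the second DM beta gene, had 0.27 (SE 0.45) and H2-Ob, the beta chain of the DO dimer that restrains DM, had -0.27 (SE 0.35). H2-Ob stood 6.18 log2 units higher in microglia than in the other named nuclei (SE 0.36), likewise a description.

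The genes whose level ran most like that of the 4 chain genes over 76 sums of a class in a library were Cd53 (Pearson r = 0.676), Fhod1 (0.673), A830008E24Rik (0.669), Cst7 (0.655), Cd180 (0.655) and Ccdc192 (0.653), out of 18193 genes. For the 7 members summed, the first was N4bp1 (r = 0.686), followed by Rnf7 (0.671) and Suclg2 (0.646). Over 27 sums of a microglial sub-cluster in a library, the genes most like the chain genes were Nudt21 (0.876), Zfp408 (0.863), Hibch (0.811), Cpt1a (0.811), Ptprc (0.785) and Cyren (0.775), out of 8755. Such sums share libraries and depth, and the correlations are a description only.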

How the data were processed

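The authors deposited raw UMI counts per gene and barcode, made with Cell Ranger 6.1.2 on mm10 (GRCm38), per the submitters' processing notes. The members and gene lists were chosen with earlier results of these data known. Barcodes with at least 300 genes and under 5% mitochondrial UMIs were kept, and simulated doublets marked 5.04% to 7.70% of a library, which were removed. Nuclei were clustered together (2500 variable genes without the members and the accessory class II chains, 40 components, 15 neighbours, Leiden resolution 1, 70 clusters) and named from marker lists (11 classes, score of at least 0.4 and at least 3 markers). Microglia were clustered again at resolution 0.6 on 1000 genes. UMIs were summed per library and class and compared with edgeR 4.0.16 (R 4.3.3; quasi-likelihood test, TMM, filterByExpr with a minimum count of 10 and a minimum total of 15, treatment as the one term, Benjamini-Hochberg over all genes tested, threshold 0.05). DESeq2 1.42.0 was an alternative. The script was tested on simulated data of 9935 genes, with 8 false calls. Intervals and the limit for a count of 0 (3 UMIs) cover counting error only.

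Genes were named by rule: all 7 members in every class, the 4 pathway genes of smallest p in microglia (1 of them is not reported here), the tested accessory chains, and the 6 genes most like the members on log2(CPM + 1). Batch is the labels' own field (replicate 1 or 2) and pairs libraries across groups. Deviations from the group means correlated between same-batch libraries of different groups at 0.0936 to 0.331 in microglia and at -0.346 to -0.0351 across batches. Gene positions are from GENCODE M21 on GRCm38, and promoter windows from RefSeq. Levels per library are CPM computed from the deposited counts, UMIs per 1000000 UMIs of the nuclei summed.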

Additional observations from a re-analysis of the deposited data

Results flagged for a closer look

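For Ciita and H2-DMa the sexes went opposite ways when all nuclei, or all nuclei outside microglia, were summed, and this difference was not tested, since the control group has 1 female. In males the mean ANGPT2 level minus the mean control level of Ciita was -0.363 CPM in all nuclei and -0.339 outside microglia. For H2-DMa it was -3.40 in all nuclei and -3.57 outside microglia. In each case both ANGPT2 males lay below both control males and both ANGPT2 females above the control female. With so few libraries chance alone can meet this rule, and the sums with and without microglia share most of their nuclei. For Ciita in all nuclei, the ANGPT2 male and female of batch 1 were each close to the control library of the same sex and batch. No library stood apart from the other 3 in the 27 sets of 4 ANGPT2 values looked at, where chance alone marks about 1 set in 20.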

How the results depend on the processing

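No member was called by edgeR or DESeq2 between ANGPT2 and control in microglia or whole libraries under any setting tried. The replicate block, with batch as the pair, left all member calls unchanged and gave microglial Cd74 -0.94 and whole-library Cd74 -1.29. Over all genes, microglia had 60 calls with no filter on low counts, 19 with the replicate block and sex together, and whole libraries 1 with DESeq2. The log2 change of microglial H2-DMb1 was -0.15 with the replicate block and sex, and -0.15 to 0.49 with 1 library left out. For whole-library H2-DMa it was -0.0195 with the replicate block, -0.090 without TMM, -0.0144 without all microglia, and -0.17 to 0.11 with 1 library left out. With 1 library left out, whole-library Ciita ran from -0.71 to 0.078 and H2-DMb1 from -0.39 to 0.19.

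The direction held in all 17 other settings for H2-Aa (-1.77 to -1.06), H2-Ab1 (-1.47 to -0.79), H2-Eb1 (-2.17 to -1.45) and Cd74 (-1.59 to -1.0) in whole libraries, and in all 18 for microglial Cd74 (-1.38 to -0.64), with an edgeR adjusted p of 0.333 to 1.00 in microglia. The unadjusted p stayed under 0.05 in 16, 12, 17 and 17 of the 17 whole-library settings for these genes in turn, and in 16 of 18 for microglial Cd74. The exceptions for the last were leaving out the ANGPT2 female of batch 1 and leaving out nuclei with other leukocyte markers. The log2 ratio of the summed chain genes ran from -1.43 to -0.75 with 1 library left out. Members called in microglia against other nuclei numbered 4 to 7 with 1 library left out, a count that the filter fixes apart from H2-DMa. In disease-associated-like against the other state they numbered 0 to 1, the 1 being Cd74, whose direction the filter largely fixes. Calls that set carriers apart, members left out, were 9, and numbered 1 to 45 with 1 library left out. They were 1 without the ANGPT2 male, 2 without the control male and 45 without the control female of batch 1. At 2 or more UMIs, 6 libraries gave 9 higher and 2 lower calls, 5 of them members. At 5 or more UMIs the calls without members were 24. Only 2 libraries, both control, had at least 3 such carriers, too few for a test. Microglia with a member UMI were 4.73% at 500 UMIs per nucleus, and carriers were then 4, against 83 at 2 or more UMIs and 11 at 5 or more. The cause was not tested. Few UMIs limit the binding chains and Ciita in microglia, and batch 2 has 1 control library.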
